A study of Mus musculus with 6 samples.

Results

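The genes described here are those of the ubiquitin system that carry one of 10 family prefixes in their symbol: the conjugating enzymes (Ube2), the RING ligases (Rnf and Trim), the cullin scaffolds (Cul), the F-box substrate receptors (Fbxo, Fbxl and Fbxw), the HECT ligases (Herc and Ube3) and the ubiquitin-specific proteases (Usp). Members were chosen by symbol alone, with no measured value, among probes that the platform annotation assigns to a single gene. Usp18 was left out by the rule. A prefix does not make every member an enzyme of that type, and Ube2cbp, Ube2v1 and Ube2v2 are counted in Ube2 by symbol alone. This gave 162 of 10698 genes named on the array, on 192 of 16281 probes. Of these genes, 147 had at least 1 probe measured on all 6 arrays and were tested, among 11231 features in all, a feature being a gene or a probe without a single gene symbol.

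Ubiquitin is attached to proteins by a relay in which an activating enzyme passes it to a conjugating enzyme and a ligase brings that enzyme to the substrate. RING ligases act as platforms for the transfer, and HECT ligases take the ubiquitin over before handing it on. Cullins build larger ligases, which are activated when the cullin carries the related modifier NEDD8. In those of Cul1, F-box proteins choose the substrate. Deubiquitinases such as the Usp proteases remove the chains, and in macrophages the balance of both sides controls signalling from Toll-like receptors to NF-κB and the degradation of the regulators of that pathway.

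The arrays compared total RNA of RAW 264.7 cells, a line of mouse macrophages, cultured for 2 h with lipopolysaccharide (LPS, 100 ng/ml) plus LPS-binding protein (LBP, 100 pM) with RNA of the same line cultured for 2 h untreated. Part of the labels write RAW 264.4. Each of the 6 two-colour arrays carried 1 treated and 1 untreated RNA, with the treated RNA in Cy5 on 3 of them (Cy5 arrays below) and in Cy3 on the other 3 (Cy3 arrays), and each orientation has a set 1, a set 2 and a set 3 in the labels. Nothing states that the sets were separate cultures, so the p-values measure only the spread between these sets, which may be technical.

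All values below are log2 ratios of treated over untreated RNA. A ratio gives no level, so members cannot be ranked by abundance. Unless stated otherwise, a value is the mean ± SD of 3 sets, each set being the mean of its 2 arrays. "Rose" and "fell" are used for genes with an adjusted p under 0.05 in limma's moderated test of the 3 sets against 0, with Benjamini-Hochberg adjustment over all 11231 features. Among macrophage markers measured on all arrays, Adgre1 (0.83 ± 0.07) and Spi1 (0.47 ± 0.12) rose and Csf1r (-0.21 ± 0.07) fell, while Cd68, Lyz2, Cd14 and Mrc1 stood between -0.02 and 0.08. None of 9 lymphocyte, fibroblast, epithelium and endothelium markers passed the test, while 4 had an unadjusted p under 0.05. In such bulk RNA, a change in the number of cells of a type and a change in RNA per cell cannot be told apart.

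Most ubiquitin system genes, like most features, moved little after 2 h of LPS and LBP. The median size of change, taken without sign, was 0.077 in the members and 0.074 over all features. Of the 147 tested members, 11 rose and 18 fell. Among these 29, 3 exceeded 1.5-fold: the F-box gene Fbxo31 and the protease gene Usp2 fell, and the RING ligase gene Rnf19b rose. Called or not, 4 of the 147 members exceeded 1.5-fold, against 334 of the 11231 features. The called share was 19.7%, against 14.8% of all features; it was 7.48% against 7.35% for higher and 12.2% against 7.45% for lower. At an unadjusted p under 0.05, 46 members (31.3%) stood out, against 28.0% of all features. The median of the members was 0.00, and that of all features -0.00. Of the 29 called members, 26 had 1 sign throughout the 6 arrays. The lowest size of a called mean was 0.20. When the test asked for a change beyond 1.5-fold (limma's treat), 0 members passed, against 1.26% of all features. In that test 2 of the 147 members had an unadjusted p under 0.05, for which no share of all features was taken.

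The number of calls depended on which libraries were used, among the members as over all features. An array left out leaves its set with 1 dye orientation, so a dye effect no longer cancels there. A set left out leaves fewer sets to test, and a call can be lost with its mean nearly unchanged. Fbxo3, for example, stood at -0.23 with all sets and at -0.24 without set 3, where it lost its call. The part of each library in a lost call was not tested. Without set 3, 9 of the 29 calls remained and no other member passed (6.12% of members, against 5.01% of all features). Without the Cy5 array of set 2, 8 remained and no other member passed (5.44%, against 4.75%). Leaving out the Cy3 array of set 1 or that of set 2 left 17 calls in each case (11.6%), all among the 29, against 7.33% and 6.54% of all features. Without set 1, 21 members passed (14.3%, against 9.40%), of which 18 were among the 29. Fbxo31, Usp2, Fbxw4 and Ube2f passed under all 9 omissions of a set or an array.

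**Figure D1:**
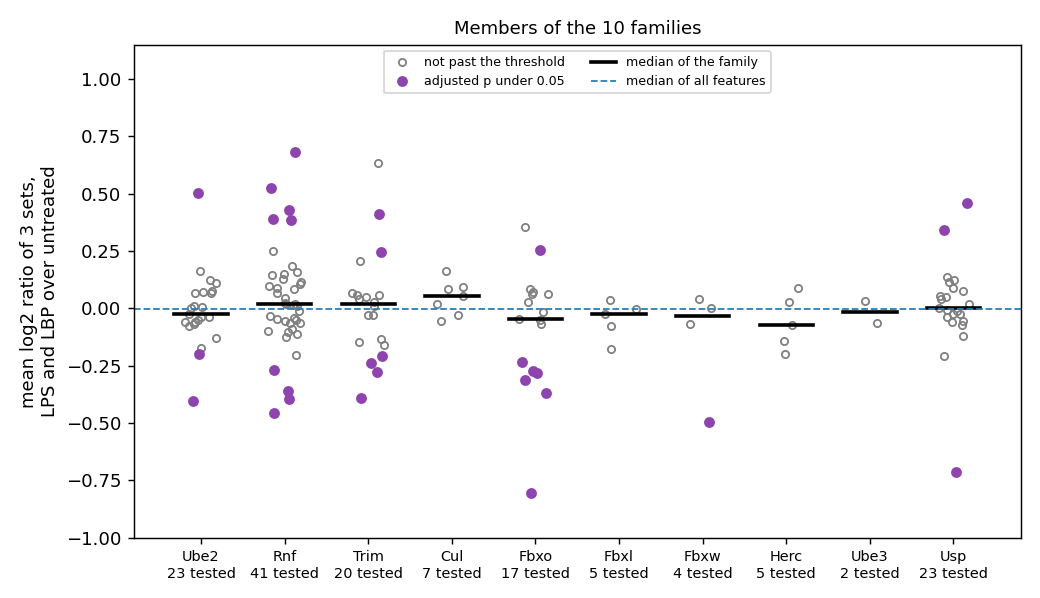
Mean log2 ratio of 3 sets (vertical axis, treated over untreated) for each tested member, by family. Filled points have an adjusted p under 0.05, black bars are family medians and the dashed line is the median of all features. The Cul, Fbxl, Herc and Ube3 families hold no filled point, and 6 of the 7 filled points of Fbxo lie below 0.

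The counts of the families, several of them small, are given as a description. Over all features, the called share was 14.8%, with 7.35% higher and 7.45% lower. Among F-box genes, 1 of 26 tested members rose and 7 fell, a called share of 30.8%. Within them, Fbxo held 1 gene that rose and 6 that fell among 17, Fbxw held 1 that fell among 4, and Fbxl held none among 5. Among the RING families, 7 of 61 rose and 8 fell (24.6%): 5 and 4 of 41 in Rnf, 2 and 4 of 20 in Trim. Ube2 held 1 gene that rose and 2 that fell among 23, and Usp held 2 that rose and 1 that fell among 23. No cullin (0 of 7) and no HECT ligase gene (0 of 7) passed the test, although 1 in each group had an unadjusted p under 0.05. Family medians lay between -0.07 (Herc) and 0.06 (Cul). With set 2 left out the Herc median was 0.04. No difference between families was tested.

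The plot of the members by family shows these counts. The median size of change, taken without sign, was 0.14 in Trim, 0.10 in Rnf, 0.09 in Herc and 0.08 in Fbxo. It was 0.07 in Ube2 and over all features, 0.06 in Usp, Cul and Fbxw, 0.05 in Ube3 and 0.04 in Fbxl.

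F-box genes gave the largest fall. Fbxo31, whose human counterpart directs cyclin D1 to degradation after DNA damage, stood at -0.79, -0.50 and -0.84 on the Cy5 arrays of sets 1 to 3 and at -0.81, -0.93 and -0.96 on their Cy3 arrays. The 6 arrays all lay below 0, and the Cy5 array of set 2 was the one nearest to it. The fall was 1.75-fold (-0.81 ± 0.09, n = 3 sets, limma adjusted p = 0.000297, lower on 6 of 6 arrays), and the adjusted p was at most 0.0124 with any set or array left out.

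Fbxw4, the WD40-repeat F-box gene mutated in mice with the limb defect dactylaplasia, fell 1.41-fold (-0.50 ± 0.02, limma adjusted p = 0.000949). Its arrays ranged from -0.62 to -0.41. Fbxo5 (Emi1), an inhibitor of the anaphase-promoting complex, fell 1.29-fold (-0.37 ± 0.07, limma adjusted p = 0.00498). It passed under 7 of 9 omissions, with the highest p, 0.0697, without the Cy5 array of set 2.

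The other Fbxo genes that fell were substrate receptors with smaller changes: Fbxo9 at -0.31 ± 0.03, Fbxo8 at -0.28 ± 0.06, Fbxo25 at -0.27 ± 0.05 and Fbxo3 at -0.23 ± 0.04. Each was below 0 on 6 of 6 arrays, with limma adjusted p between 0.00644 and 0.0207. Their highest adjusted p with a library left out was 0.103 for Fbxo9, 0.100 for Fbxo8 and 0.264 for Fbxo25, each without the Cy5 array of set 2, and 0.171 for Fbxo3 without set 3. Fbxo30, a ligase gene of muscle atrophy, was the Fbxo gene that rose (0.25 ± 0.05, limma adjusted p = 0.0160, higher on 6 of 6 arrays). It passed under 4 of 9 omissions, with a highest p of 0.186 without the Cy5 array of set 2.

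Fbxo15, a gene of pluripotent cells, had the highest mean of the F-box genes, 0.35 ± 0.39, and did not pass (limma adjusted p = 0.156). Its sets stood at -0.09, 0.65 and 0.50, so set 1 stood apart from the other two, and without set 1 its mean was 0.58 with an adjusted p of 0.0111. In the Fbxl family, Fbxl20 (-0.18 ± 0.09) was lowest and Fbxl17 (0.04 ± 0.13) highest. Fbxl20 rested on probes that disagreed, at -0.33 and -0.03. Fbxw9 had the highest Fbxw mean, 0.04 ± 0.05.

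The cullins are scaffolds that differ in the receptors they take: Cul1 holds F-box proteins through Skp1, Cul4a binds the adaptor Ddb1, and Cul5 takes SOCS-box receptors through the elongins. They ran from Cul4a at -0.05 ± 0.01 to Cul5 at 0.16 ± 0.05. Cul5 was positive on 6 of 6 arrays with a limma adjusted p of 0.0696, and 0.0225 in the fit of 6 arrays with the set as a block. With a set or array left out, its adjusted p lay between 0.0736, without set 2, and 0.360, without set 3. The conjugating enzyme that loads NEDD8 onto Cul5 is encoded by Ube2f, described next.

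Ube2f rose evenly. The arrays of sets 1 to 3 stood at 0.46, 0.57 and 0.54 in Cy5 and at 0.42, 0.48 and 0.54 in Cy3. Sets and dyes differed little. The rise was 1.42-fold (0.50 ± 0.05, limma adjusted p = 0.00118, higher on 6 of 6 arrays). Ube2t, the conjugating enzyme of the Fanconi anaemia pathway, fell 1.32-fold (-0.40 ± 0.08, limma adjusted p = 0.00382, lower on 6 of 6 arrays), and its p was 0.0579 without set 3. Ube2d3, which encodes an enzyme that serves many ligases, fell by 0.20 on the log2 scale (SD 0.03, limma adjusted p = 0.0346). It was lower on 6 of 6 arrays but passed under 1 of 9 omissions, with a highest p of 0.269 without set 3.

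Among conjugating enzymes tied to signalling, Ube2n, whose product builds the lysine-linked chains of the Toll-like receptor pathway, could not be tested, as 1 array lacked a value. It stood at 0.48, 0.44 and 0.45 on the Cy5 arrays and at -0.43 and -0.27 on the Cy3 arrays that measured it. The sign followed the dye and not the treatment. Its partner gene Ube2v1 stood at -0.04 and did not pass. Another partner gene, Ube2v2, was the least even member between probes, with means of -0.29 and 0.15. All of these were chosen for mention after their values were seen.

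**Figure D2:**
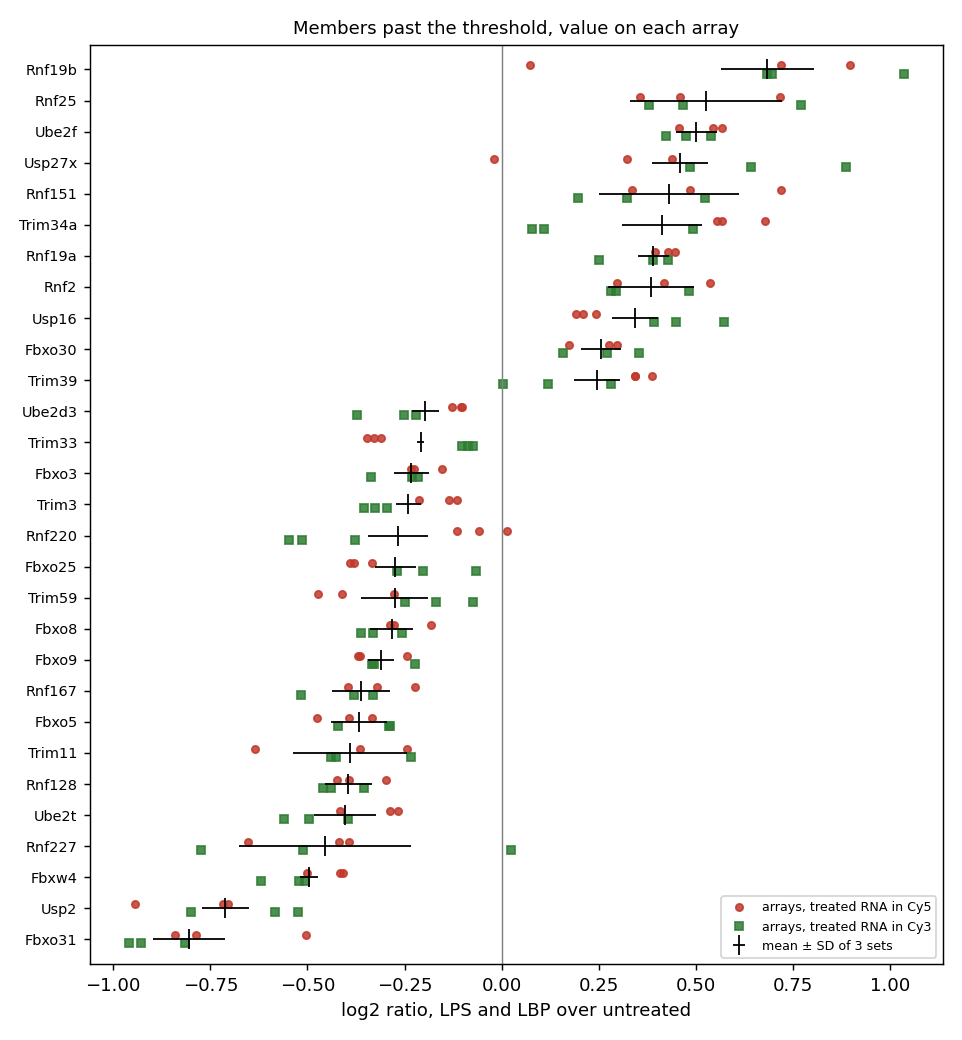
Log2 ratio (horizontal axis, treated over untreated) on each array for the 29 members past the threshold. Circles mark the Cy5 arrays, squares the Cy3 arrays, and black crosses the mean ± SD of 3 sets. Fbxo31 and Usp2 lie lowest and Rnf19b highest, with 1 array of Rnf19b at 0.07.

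The RING families moved in both directions. Rnf19b, also called NKLAM, a RING-between-RING ligase of cytotoxic lymphocytes and macrophages, stood at 0.90, 0.07 and 0.72 on the Cy5 arrays of sets 1 to 3. It stood at 0.68, 1.03 and 0.70 on their Cy3 arrays. The Cy5 array of set 2 was far below the other 5, and its Cy3 partner was the highest. The rise was 1.61-fold (0.68 ± 0.12, limma adjusted p = 0.000832, higher on 6 of 6 arrays). Without the Cy3 array of set 2, so that the low array stood for that set, the mean was 0.52 with an adjusted p of 0.130.

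Its paralog Rnf19a (Dorfin) also rose (0.39 ± 0.04, limma adjusted p = 0.00282), with a highest p of 0.0683 without the Cy5 array of set 2. Rnf25 rose 1.44-fold (0.52 ± 0.20, limma adjusted p = 0.00711). Its set 2 stood at 0.74 and the other sets at 0.46 and 0.37, and its p was 0.0523 without the Cy5 array of set 2. Rnf2, the catalytic RING subunit of Polycomb repressive complex 1 that ubiquitinates histones, rose 1.31-fold (0.38 ± 0.11, limma adjusted p = 0.00709), with a highest p of 0.0813 without set 3. Rnf151 rose as well (0.43 ± 0.18, limma adjusted p = 0.0121), with a highest p of 0.0969 without the Cy5 array of set 2. All 4 were higher on 6 of 6 arrays.

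Among Rnf genes that fell, Rnf128 (GRAIL), a transmembrane ligase that restrains T cell activation, stood at -0.40 ± 0.06 (limma adjusted p = 0.00329). Rnf167, a transmembrane ligase of endosomes and lysosomes, stood at -0.36 ± 0.07 (limma adjusted p = 0.00545). Both were lower on 6 of 6 arrays and each lost its call under 1 of 9 omissions, with p of 0.0599 for Rnf128 without set 3 and 0.0592 for Rnf167 without the Cy5 array of set 2. Rnf227, which RefSeq lists as a long non-coding RNA gene, fell by 0.45 on the log2 scale (SD 0.22, limma adjusted p = 0.0171, lower on 5 of 6 arrays). Its p was 0.265 without the Cy5 array of set 2.

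Rnf220 fell by 0.27 on the log2 scale (SD 0.08, limma adjusted p = 0.0176, lower on 5 of 6 arrays), but its arrays averaged -0.05 for Cy5 and -0.48 for Cy3. The dye term had an adjusted p of 0.0623. It passed under 2 of 9 omissions.

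The Trim genes, many of which are antiviral and interferon-inducible, included 2 that rose. Trim34a rose 1.33-fold (0.41 ± 0.10, limma adjusted p = 0.00484, higher on 6 of 6 arrays), with a p of 0.217 without the Cy5 array of set 2. Its arrays averaged 0.60 for Cy5 and 0.23 for Cy3. Trim39 rose by 0.25 on the log2 scale (SD 0.06, limma adjusted p = 0.0192) and passed under 2 of 9 omissions. The genes that fell were Trim11 (-0.39 ± 0.15), Trim59 (-0.28 ± 0.09), Trim3 (-0.24 ± 0.03), which carries an NHL domain, and Trim33 (-0.21 ± 0.01), a chromatin-associated regulator of Smad signalling. All 4 were lower on 6 of 6 arrays, with limma adjusted p between 0.0110 and 0.0258. Their highest adjusted p with a library left out lay between 0.114 for Trim11, without set 3, and 0.323 for Trim33, without the Cy5 array of set 2.

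Trim21, the cytosolic antibody receptor with ligase activity (Ro52), had the highest mean of the Trim genes, 0.64 ± 0.55, and did not pass (limma adjusted p = 0.0767). It stood at 1.41, 0.22 and 0.53 on the Cy5 arrays of sets 1 to 3 and at 1.11, 0.18 and 0.36 on their Cy3 arrays. It was positive on 6 of 6 arrays, and both arrays of set 1 were far above the other 4. Its mean was 0.32 without set 1 (adjusted p = 0.0720) and 0.85 without set 2 (adjusted p = 0.000245). It also passed without the Cy3 array of set 3 (adjusted p = 0.0326) and after quantile normalization (adjusted p = 0.0311).

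Trim30a, chosen for mention with its promoter below, stood at 0.58 in set 1, -0.06 in set 2 and -0.32 in set 3 (0.07 ± 0.46, limma adjusted p = 0.833). Trim34a was also highest in set 1, at 0.53, against 0.38 in set 2 and 0.33 in set 3. Isg15, an interferon-induced ubiquitin-like modifier outside the families, had the same order, at 2.64, 1.88 and 1.36. The part of a difference between sets in these values was not tested. Trim34a and Trim30a have close paralogs, which the same probe may detect.

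These Trim genes are shown with the 300 bases of RefSeq sequence around an annotated start (250 before and 50 after), since they share the core of the interferon-stimulated response element. The core was searched as GAAANNGAAA on both strands, with overlapping matches counted, and matched letters are in capitals. The windows are from GRCm38.p6: Trim21 at chr7:102565433-102565732 (minus strand), Trim34a at chr7:104244207-104244506 (plus strand), Trim30a at chr7:104465144-104465443 (minus strand) and Trim12a at chr7:104315446-104315745 (minus strand).
Trim21: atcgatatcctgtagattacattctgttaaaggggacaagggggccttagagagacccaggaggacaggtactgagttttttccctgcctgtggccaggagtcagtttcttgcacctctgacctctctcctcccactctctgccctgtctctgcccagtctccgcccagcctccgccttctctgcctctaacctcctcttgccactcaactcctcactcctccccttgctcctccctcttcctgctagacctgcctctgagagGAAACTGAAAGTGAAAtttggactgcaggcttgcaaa
Trim34a: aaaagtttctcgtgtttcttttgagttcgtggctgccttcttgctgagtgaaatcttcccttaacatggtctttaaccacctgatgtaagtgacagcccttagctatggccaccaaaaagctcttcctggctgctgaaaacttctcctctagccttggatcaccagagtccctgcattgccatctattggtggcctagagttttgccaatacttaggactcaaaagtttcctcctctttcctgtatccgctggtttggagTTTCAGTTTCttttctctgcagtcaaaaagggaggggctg
Trim30a: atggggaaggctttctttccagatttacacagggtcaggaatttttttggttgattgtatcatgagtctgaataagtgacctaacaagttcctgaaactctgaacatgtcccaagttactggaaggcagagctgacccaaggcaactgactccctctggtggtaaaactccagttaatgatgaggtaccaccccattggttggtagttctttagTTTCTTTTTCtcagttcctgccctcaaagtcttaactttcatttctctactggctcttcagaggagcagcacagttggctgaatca
Trim12a: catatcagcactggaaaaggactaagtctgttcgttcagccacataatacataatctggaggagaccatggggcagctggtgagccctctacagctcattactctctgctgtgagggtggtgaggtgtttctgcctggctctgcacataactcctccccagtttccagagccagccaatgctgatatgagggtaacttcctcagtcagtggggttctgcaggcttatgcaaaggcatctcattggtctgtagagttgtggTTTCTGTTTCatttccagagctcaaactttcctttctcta

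Trim21 held 2 overlapping matches, beginning 13 and 19 bases past the start. Those of Trim34a and Trim12a each began 10 bases past it, on the opposite strand, and that of Trim30a began 36 bases before the start of the window printed. Of the 162 members, 122 had a window in the RefSeq table, and 10 of these (8.20%) held the core, against 3.99% of 27025 genes (3.44% of 32851 windows). Besides the 4 printed, these were Cul1, Fbxo36, Rnf121, Rnf146, Trim2 and Usp17lc. Of the 8 that were tested, Trim34a passed. A match describes the letters only.

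**Figure D3:**
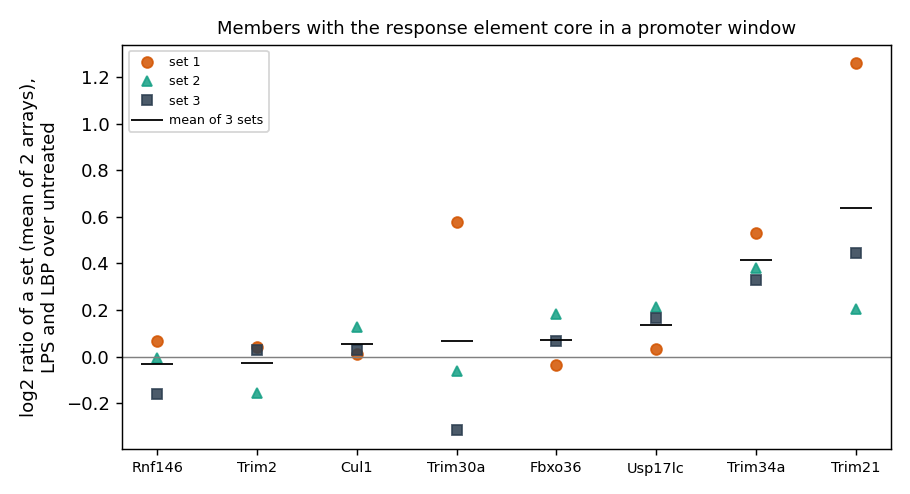
Log2 ratio of each set (vertical axis, treated over untreated, mean of 2 arrays) for the 8 tested members whose promoter window holds the response element core; bars are means of 3 sets. Set 1 is highest for Trim21, Trim34a, Trim30a, Rnf146 and Trim2. The 5 members other than the first 3 of these have means between -0.03 and 0.14.

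The Usp proteases gave the second largest fall. Usp2, whose human counterpart stabilises the p53 ligase Mdm2, stood at -0.72, -0.94 and -0.70 on the Cy5 arrays of sets 1 to 3 and at -0.80, -0.52 and -0.58 on their Cy3 arrays. All 6 arrays lay well below 0, set 2 holding both the lowest and the highest. The fall was 1.64-fold (-0.71 ± 0.06, limma adjusted p = 0.000319, lower on 6 of 6 arrays), and the adjusted p was at most 0.0142 with any set or array left out.

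Usp16, a histone deubiquitinase that removes the mark written by Rnf2, rose 1.27-fold (0.34 ± 0.06, limma adjusted p = 0.00563, higher on 6 of 6 arrays). It passed under 5 of 9 omissions, with a highest p of 0.0760 without the Cy5 array of set 2. Usp27x, an X-linked relative of the histone deubiquitinase gene Usp22, rose 1.37-fold (0.46 ± 0.07, limma adjusted p = 0.00213). It was higher on 5 of 6 arrays, with the Cy5 array of set 2 at -0.02 and the Cy3 array at 0.89. Its p was 0.242 without that Cy3 array. The 2 arrays of set 2 lay far apart for Usp27x, as they did for Rnf19b. The other 20 tested Usp members did not pass and lay between -0.21 and 0.14. One of them, Usp46os2, carries the prefix but is named as an opposite-strand transcript.

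The promoters of Usp27x and Ube2d3 are shown because they are the called members with a kappaB motif, searched by its consensus on both strands. The windows, from RefSeq GRCm38.p6, are chrX:7375781-7376080 (minus strand) for Usp27x and chr3:135437982-135438281 (plus strand) for Ube2d3, with the match in capitals.
Usp27x: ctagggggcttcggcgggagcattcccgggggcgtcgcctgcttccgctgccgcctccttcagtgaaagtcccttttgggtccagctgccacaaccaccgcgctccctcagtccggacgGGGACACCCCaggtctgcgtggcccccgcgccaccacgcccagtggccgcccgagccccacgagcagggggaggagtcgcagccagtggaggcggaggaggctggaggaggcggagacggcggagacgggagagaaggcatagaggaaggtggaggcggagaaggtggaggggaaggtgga
Ube2d3: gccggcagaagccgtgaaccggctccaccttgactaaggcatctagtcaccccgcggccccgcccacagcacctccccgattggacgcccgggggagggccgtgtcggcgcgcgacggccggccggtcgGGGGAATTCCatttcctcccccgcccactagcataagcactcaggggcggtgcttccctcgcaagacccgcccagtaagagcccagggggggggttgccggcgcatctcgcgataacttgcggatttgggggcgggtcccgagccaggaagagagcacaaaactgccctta

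The matches began 131 bases before the start in Usp27x, which rose, and 121 bases before it in Ube2d3, which fell. Of 122 members with a window, 3 (2.46%) held the motif, against 5.14% of 27025 genes, and the other was the untested Rnf121. Of the 21 called members with a window, 2 held the kappaB motif and 1, Trim34a, held the response element core.

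None of the 7 HECT ligase genes passed the test of all 3 sets. Herc3 was lowest at -0.20 ± 0.12 (limma adjusted p = 0.0790, negative on 6 of 6 arrays). Without set 1, Herc3 stood at -0.27 with a limma adjusted p of 0.0443, and without set 3 its adjusted p was 0.405. Herc6, the main ISG15 ligase of mice, was highest at 0.09 ± 0.09. Ube3a, the Angelman syndrome ligase, stood at -0.06 ± 0.24 and Ube3b at 0.03 ± 0.09.

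Of 162 members, 15 had no probe on all 6 arrays: Fbxo24, Fbxw2, Fbxw27, Rnf121, Rnf141, Rnf187, Trim12a, Trim17, Trim35, Trim54, Ube2e1, Ube2n, Usp10, Usp14 and Usp29. For 10 of them a probe had values on 4 or 5 arrays, and 0 of these 10 had one sign throughout. Among the 147 tested, 118 did not pass, with means between -0.21 (Usp48) and 0.64 (Trim21). In 24 members with several complete probes, the median range between the probes' means was 0.07.

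Dye orientation was examined for the members as well. In 15 of the 147, all arrays of one orientation had one sign and all of the other the opposite sign. That is 10.2% of members, against 13.1% of all features. They included 2 cullins, 4 Rnf and 3 Ube2 members. In the fit with a dye term, 0 members passed for that term, against 0.499% of all features. Among the 29 called members, 10 had a mean that moved by over 1.5 times when 1 orientation was used alone: Fbxo25, Rnf220, Trim3, Trim33, Trim34a, Trim39, Trim59, Ube2d3, Usp16 and Usp27x. The dye term had an unadjusted p under 0.05 in 34 of the 147 members, a share slightly below the 25.2% of all features.

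**Figure D4:**
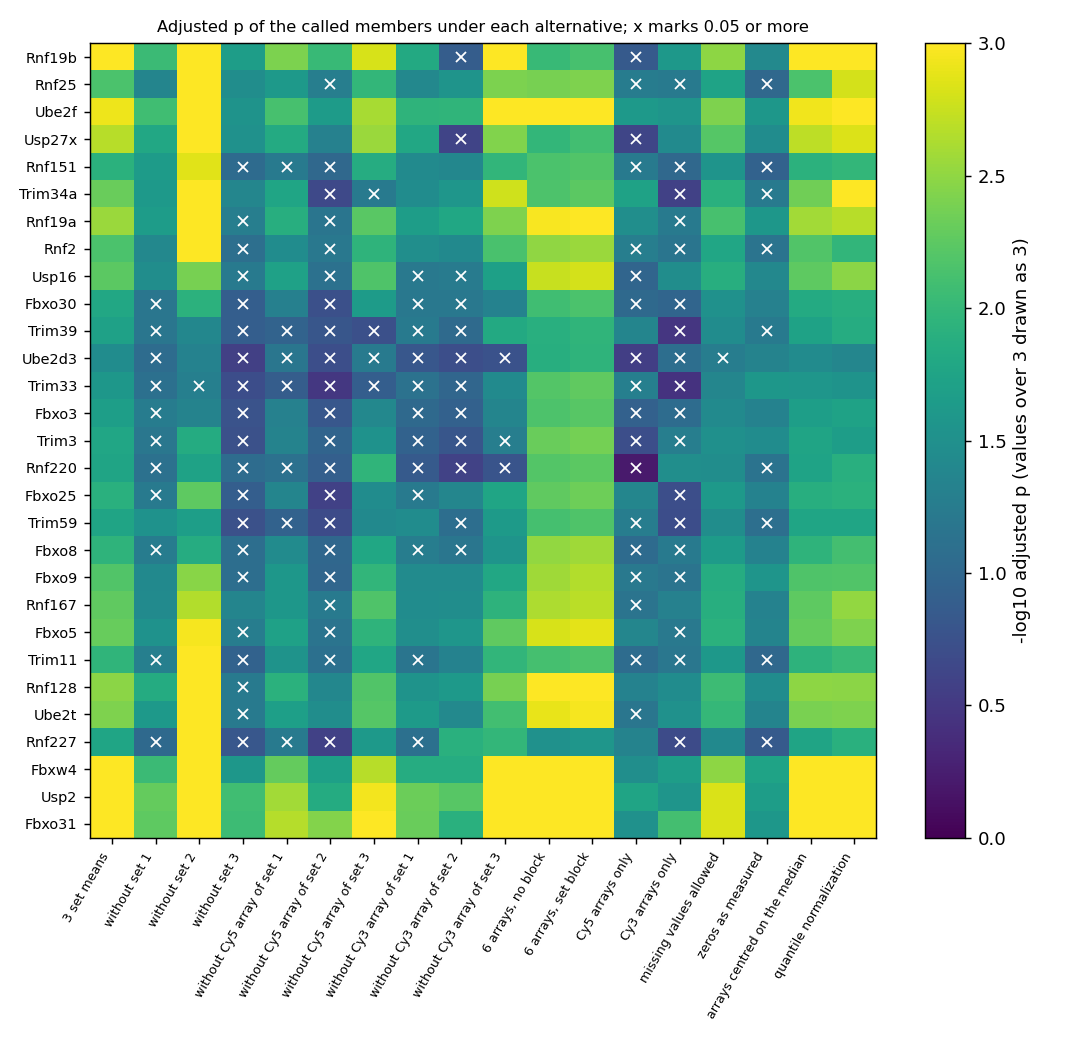
Adjusted p of the 29 called members (vertical axis) under each alternative (horizontal axis), as -log10 on the colour scale, with values over 3 drawn as 3. A cross marks an adjusted p of 0.05 or more; Fbxo31, Usp2, Fbxw4 and Ube2f have no cross.

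The map of adjusted p across alternatives shows where the calls of the members held. Fbxo31, Usp2, Fbxw4 and Ube2f passed under all 17 alternatives drawn, and no called member changed sign under any of the 17. The map leaves out the fit of single probes and the test beyond 1.5-fold, which 0 members passed. The columns without set 3, without the Cy5 array of set 2 and with arrays of 1 dye orientation hold the most crosses. The columns with 6 single arrays, with median centring and with quantile normalization hold none.

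Other genes of the pathway, taken from 5 lists, included larger changes. The lists were chosen from knowledge of the system with earlier results of these data known, so their called share is a description only. Of 93 tested, 14 rose and 8 fell (23.7%, against 14.8% of all features), with a median of 0.02. Among 41 other ligases and adaptors, 10 rose and 5 fell. Peli1, a Pellino ligase of the IRAK kinases, rose 4.12-fold (2.04 ± 0.17, limma adjusted p = 2.23e-05), more than any member of the families. Birc3 (cIAP2), a ligase of the TNF receptor pathway, rose 2.80-fold (1.49 ± 0.10, limma adjusted p = 2.56e-05). Both were higher on 6 of 6 arrays, and Peli1 passed under all 9 omissions, as did Birc3.

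Socs1 (0.65 ± 0.12), a cytokine signalling inhibitor with a cullin-binding box, Mdm2 (0.60 ± 0.09) and Vhl (0.48 ± 0.21), the substrate receptor for hypoxia-inducible factors, also rose. Socs1 and Mdm2 passed under all 9 omissions, while Vhl had a p of 0.128 without set 3. Those that fell were Nedd4l (-0.30 ± 0.03), Skp2 (-0.26 ± 0.02), the F-box protein of p27, Keap1 (-0.25 ± 0.09), the adaptor of Nrf2, Pias3 (-0.23 ± 0.08) and Ccnf (-0.20 ± 0.05), an F-box cyclin. Their highest adjusted p with a library left out lay between 0.162 and 0.608, so none of these 5 kept its call throughout. Without the Cy5 array of set 2, Ccnf stood at -0.09 and Keap1 at -0.15, and without the Cy3 array of set 2, Pias3 stood at -0.12 and Ccnf at -0.31. By orientation, Keap1 averaged -0.45 on the Cy5 arrays and -0.04 on the Cy3 arrays, and Pias3 -0.02 and -0.44. Ccnf passed under 0 of 9 omissions.

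Among 13 other deubiquitinases, Tnfaip3 (A20; 1.48 ± 0.03) and Otud5 (0.28 ± 0.07) rose and none fell. Otud5 had a p of 0.0988 without set 3. Among 15 ubiquitin-like modifiers and their proteases, Isg15 (1.96 ± 0.64) and the SUMO protease gene Senp2 (0.20 ± 0.06) rose. With exact zeros taken as measured, Isg15 stood at 0.98 with a limma adjusted p of 0.0816, as zeros without a measured ratio then enter the average of its probes. With missing values allowed, it stayed at 1.96 (limma adjusted p = 0.00818). Senp8, which encodes a protease that processes NEDD8 and removes it from proteins, fell (-0.48 ± 0.04, limma adjusted p = 0.00120, lower on 6 of 6 arrays), as did the SUMO protease gene Senp5 (-0.20 ± 0.04) and the UFM1 protease gene Ufsp1 (-0.19 ± 0.05). Senp8 passed under 8 of 9 omissions, with a p of 0.195 without the Cy5 array of set 2. It averaged -0.75 on the Cy5 arrays and -0.21 on the Cy3 arrays (dye term adjusted p = 0.0595), and with Cy3 arrays alone its adjusted p was 0.167. Senp2, Senp5 and Ufsp1 passed under 1 or 2 of 9.

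None of the 20 cullin-RING partners, COP9 signalosome and anaphase-promoting complex genes passed, with means between -0.12 and 0.10. At an unadjusted p under 0.05, 2 of them stood out. None of the 4 tested genes of the activating enzyme list, Uba3, Uba7, Sae1 and Ube4b, passed either (lowest Sae1 at -0.15). None of these 4 had an unadjusted p under 0.05. Uba1 and Uba6, which encode the enzymes that activate ubiquitin, had no probe under their symbol, so that step was not measured. The genes that encode ubiquitin itself were not analysed here.

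**Figure D5:**
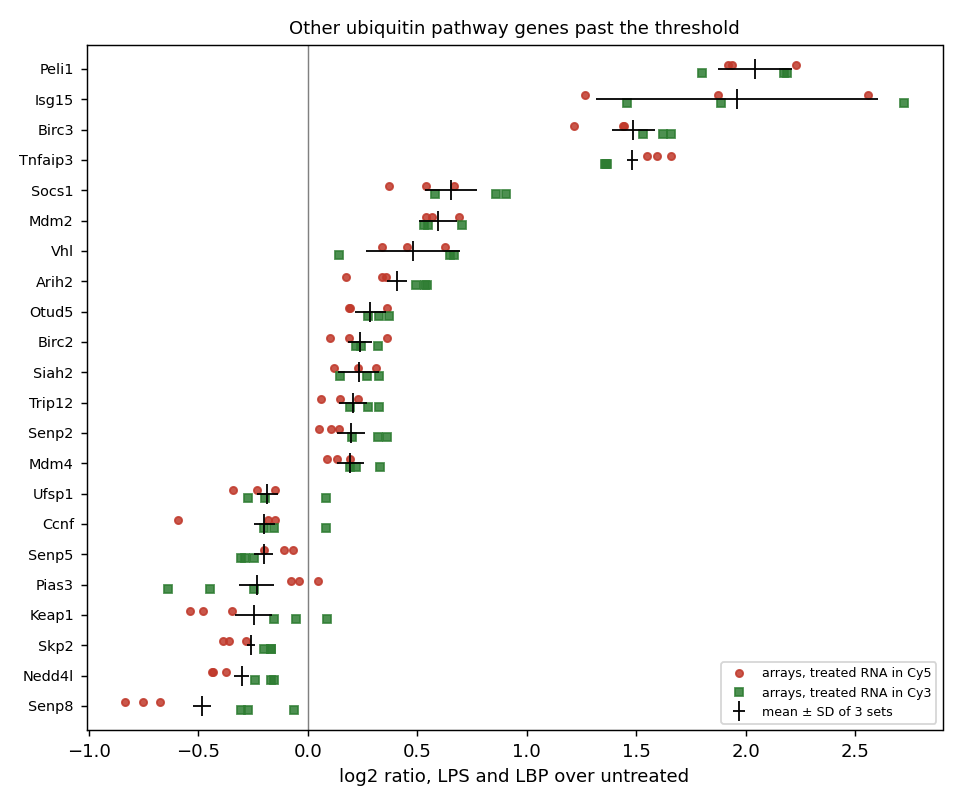
Log2 ratio (horizontal axis, treated over untreated) on each array for the 22 other pathway genes past the threshold. Circles mark the Cy5 arrays, squares the Cy3 arrays, and black crosses the mean ± SD of 3 sets. Peli1, Isg15, Birc3 and Tnfaip3 lie highest, with means of 1.48 or more.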

How the data were processed

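RNA of treated and untreated RAW 264.7 cells was compared on 6 two-colour arrays. The authors deposited log2 ratios of both channels for 16281 probes. The unit was read from the values: 87.3% to 92.8% of the values other than 0 on an array have the form of log10 ratios turned into log2. How background and dyes were corrected, and the scanner, is not given in the sources used here. Cy5 over Cy3 was assumed as direction, the likely reading of the channel names, and Cy3 arrays were turned. Array medians lay between -0.01 and 0.01. Signal over background is unknown, as no spot intensity was used, and precision is limited by how many arrays there are.

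Exact zeros (10.8% of values) were taken as missing, which left 13224 probes measured on all 6 arrays. Of all probes, 13738 had 1 gene symbol in the platform annotation and 52 had several. Complete probes of a gene were averaged into 11231 features. Arrays of one set were averaged, which cancels a dye effect, and the mean of the 3 sets was set against 0 in a two-sided moderated test (functions lmFit and eBayes of limma 3.58.1, R 4.3.3) with 4.16 prior degrees of freedom and Benjamini-Hochberg adjustment at 0.05. The fit was tested on simulated data. Set numbers pair the arrays by the labels. Before turning, deviations of same-numbered arrays correlated across features with r of 0.40, 0.43 and 0.14. Deviations shared before turning follow the dyes and have opposite signs as ratios of treated over untreated RNA. They do not show that the arrays of a set share a difference in treatment response. Tables and promoter searches used Python 3.11.15 with pandas 2.3.3, and figures matplotlib 3.10.9.

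Members, lists and tests were chosen with earlier results of these data known. Genes were named by rule: members past the threshold (at most 20 in each direction), with every array given for those over 1.5-fold, the highest and lowest tested member of each family, untested members with one sign on at least 4 arrays, and at most the 5 highest and 5 lowest called genes of each pathway list. Values on every array of Ube2f, Trim21 and Ube2n, and the mention of Ube2v1, Ube2v2, Usp46os2, Usp48 and genes chosen for their promoter, go beyond it. Alternatives left out sets or arrays, used single arrays with and without the set as a block, 1 dye orientation, missing values, zeros as measured, other centring, single probes and a 1.5-fold threshold. The search of protein motifs was not done, as no protein table was used here.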

Additional observations from a re-analysis of the deposited data

Results flagged for a closer look

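Fbxw9, a WD40-repeat F-box gene that did not pass the test, had opposite signs in the 2 dye orientations. It averaged 0.21 on the 3 Cy5 arrays and -0.13 on the 3 Cy3 arrays, a difference of 0.35, with every array of one orientation on one side of 0. The dye term had a limma adjusted p of 0.0924, so the difference did not pass the threshold.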

How the results depend on the processing

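Among the 57 genes followed, median centring kept every call. Under the alternatives the counts of members that rose and fell were 3 to 15 and 4 to 19 with a set or array left out, 4 and 7 with Cy5 arrays alone, 4 and 7 with Cy3 arrays alone, and 0 and 0 against a 1.5-fold change, where all features gave 141. Zeros as measured gave 6 that rose. Over all features the count was 1663, with 533 to 1685 when a library was left out, 639 and 655 with 1 dye orientation and 962 with zeros as measured. As the labels pair the arrays by set number, the fit of 6 arrays with the set as a replicate block was run. In it 14 members rose and 22 fell, against 14 and 20 without the block, and all 29 calls remained in both. The consensus correlation was -0.06. With a library left out, family medians ranged from -0.069 to 0.045 (Ube2), -0.011 to 0.036 (Rnf), -0.054 to 0.025 (Trim), -0.020 to 0.12 (Cul), -0.073 to -0.0086 (Fbxo), -0.083 to 0.0077 (Fbxl), -0.086 to 0.017 (Fbxw), -0.16 to 0.040 (Herc), -0.087 to 0.058 (Ube3) and -0.0020 to 0.034 (Usp), so the sign turned in all but Fbxo. With Cy5 arrays alone they were -0.0019 (Rnf), -0.10 (Trim), -0.086 (Cul), -0.089 (Fbxo), 0.041 (Fbxl), 0.084 (Fbxw), -0.19 (Herc) and 0.030 (Usp). With Cy3 arrays alone they were 0.059 (Rnf), 0.17 (Cul), 0.00030 (Fbxo), -0.14 (Fbxl), -0.15 (Fbxw), 0.046 (Herc) and 0.054 (Usp). The Fbxo median was -0.018 with single probes, and the Fbxw median -0.069 with missing values allowed. Among the 57 genes followed, which leave out genes named for their promoter alone, signs turned in 5 that had not passed. With a library left out, Fbxl17 ranged from -0.030 to 0.097, Fbxw9 from -0.051 to 0.13, Ube3a from -0.15 to 0.071 and Ube3b from -0.020 to 0.071. With Cy3 arrays alone, they stood at -0.050, -0.13, 0.013 and -0.0014, in that order, and Herc6 stood at -0.020 with Cy5 arrays alone. Ube3b stood at -0.010 with missing values allowed and at -0.0054 with zeros as measured. The cause was not tested.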
